A study of Homo sapiens with 18 samples.

Results

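The genes described here are 40 that act in mitosis and cytokinesis. They were chosen by symbol from general knowledge of cell division, with earlier results of these data known. The list is therefore not independent evidence of a direction. The symbols were then looked up among the 20802 genes of the expression panel. All 40 were found. Of these, 39 exceeded the minimum of 100 counts in all libraries together, and HMMR, a spindle-associated hyaluronan receptor, did not, with 65 counts in total. RKO, an established human colorectal carcinoma line, was transfected for 72 h with 30 nM of an siRNA and RNA was measured in 18 libraries, 3 for each of 6 siRNAs. The nontargeting siCtrl#1 and siCtrl#2 served as controls, siTsg101#1 and siTsg101#2 removed the Tsg101 subunit of ESCRT-I, and siVps28#1 and siVps28#2 removed its Vps28 subunit. All groups are the same line at the same dose and time, and differ in the siRNA. The labels give the replicate number of each library as its batch, and each batch holds 1 library of every siRNA. The study describes its sequencing replicates as independent experiments. The question is whether the transcripts of the G2 and M phases changed after ESCRT-I depletion, and in which classes of division genes.

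Cells raise the transcripts of a shared set of genes in G2 and M phase. CDK1 with its cyclins drives entry into mitosis, kinetochores tie chromosomes to the spindle, the spindle checkpoint holds the CDC20-activated anaphase-promoting complex until attachment is complete, and the central spindle and the contractile ring then divide the cell. Promoters of many of these genes carry CCAAT boxes, bound by NF-Y, and a cell cycle genes homology region (CHR), bound by MuvB complexes that act with MYBL2 and FOXM1 in proliferating cells and as the repressive DREAM complex in resting cells. ESCRT-I sorts membrane cargo at endosomes and lysosomes, and it also takes part in the last step of division, where ESCRT-III severs the bridge between daughter cells.

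Promoters of 34 of the 40 genes (all but AURKA, BIRC5, UBE2C, TTK, RACGAP1 and TPX2) were found in a RefSeq table of the GRCh38.p14 assembly, which gives 250 bases before and 50 bases after each start site. A CHR-type hexamer (TTTGAA or TTCGAA, either strand) was present in 27 of the 34, or 79.4%, against 16.4% of all 35116 promoters in the table and 15.2% of the 8431 tested genes that have one. CCAAT on either strand was present in 28 of the 34, or 82.4%, against 34.6% of all promoters and 44% of those of tested genes. Both were present together in 23 of the 34, or 67.6%, against 6.38% and 6.55%. The hexamer lay between 60 bases before and 20 bases after the start site in 21 of the 27 genes, and CCAAT lay between 120 and 20 bases before it in 25 of the 28. A match of letters is a description of the sequence and does not show binding.

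The promoters of 6 genes are printed because results below turn on these genes: CDC20, CCNA2, KIF11, KIF4A and KIF20A were lower in depleted cells, and BUB1 was not called. Each is the stretch of 130 bases that ends just before the RefSeq start site, written 5′ to 3′ in the direction of the gene, located by exact match in GRCh37, with CCAAT boxes (ATTGG on the other strand) and CHR-type hexamers in capitals. The stretches lie at chr1:43824522-43824651, + strand for CDC20, chr4:122745039-122745168, - strand for CCNA2, chr10:94352757-94352886, + strand for KIF11, chrX:69509824-69509953, + strand for KIF4A, chr5:137514671-137514800, + strand for KIF20A and chr2:111435641-111435770, - strand for BUB1, and contain no base of an annotated exon. Those of KIF11 and KIF20A fall in an intron of the gene's longest annotated extent.
CDC20: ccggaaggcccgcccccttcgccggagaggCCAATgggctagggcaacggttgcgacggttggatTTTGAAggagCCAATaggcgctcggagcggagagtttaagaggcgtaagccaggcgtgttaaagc
CCNA2: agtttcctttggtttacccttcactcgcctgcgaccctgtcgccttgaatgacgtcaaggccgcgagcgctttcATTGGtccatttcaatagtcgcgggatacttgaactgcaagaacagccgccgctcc
KIF11: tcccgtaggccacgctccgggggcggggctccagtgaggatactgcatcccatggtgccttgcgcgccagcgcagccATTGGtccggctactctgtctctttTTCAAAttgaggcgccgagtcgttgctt
KIF4A: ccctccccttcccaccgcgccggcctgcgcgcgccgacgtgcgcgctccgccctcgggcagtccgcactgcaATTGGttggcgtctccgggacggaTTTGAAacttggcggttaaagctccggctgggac
KIF20A: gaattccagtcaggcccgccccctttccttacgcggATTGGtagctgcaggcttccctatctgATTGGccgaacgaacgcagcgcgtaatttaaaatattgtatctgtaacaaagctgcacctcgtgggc
BUB1: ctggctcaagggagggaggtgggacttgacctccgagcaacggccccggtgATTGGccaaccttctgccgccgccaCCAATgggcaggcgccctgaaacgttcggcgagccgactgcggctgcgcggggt
CDC20, KIF11 and KIF4A hold CCAAT and a TTTGAA or TTCGAA hexamer in this stretch. CCNA2, KIF20A and BUB1 hold CCAAT without either hexamer. BUB1 has a hexamer 2 bases after its start site. No match says only that these letters are not in the window, and a CHR of other letters was not searched.

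**Figure D1:**
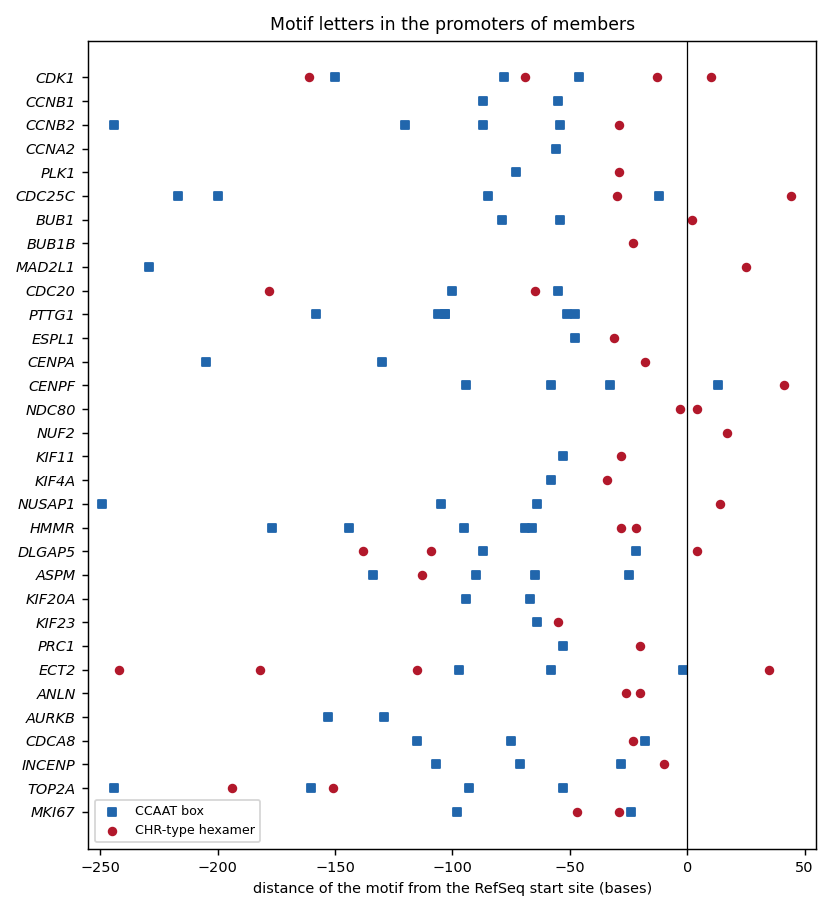
Each row is a gene and the horizontal axis is the distance in bases from the RefSeq start site, from 250 before to 50 after it. Blue squares mark CCAAT and red circles a CHR-type hexamer on either strand, for the genes with at least 1 match. In 25 genes CCAAT lies between 120 and 20 bases before the start.

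The libraries held between 2561790 and 7466916 reads counted on genes, with a median of 5022216. TSG101 stood between 2.39 and 4.79 CPM in the 6 libraries of its own siRNAs and between 71.5 and 159.9 CPM in the other 12, and VPS28 between 3.34 and 7.47 CPM with its own siRNAs and between 62.5 and 107.4 CPM elsewhere, as the labels say. Of the epithelial markers of a colorectal line, EPCAM, KRT8, KRT18 and CDX2 were detected and CDH1, CDH17 and GPA33 had 0 counts in every library. KRT19, VIL1 and LGALS4 had 1, 6 and 4 counts in all libraries together and were not tested. The summed level of 5 epithelial markers was 98.9 to 120.7 CPM in the control libraries and 70.5 to 112.2 CPM in the depleted ones, but its members moved in opposite ways. EPCAM rose in the mean of the 4 siRNAs (log2 fold change 0.65, adjusted p = 0.0368), as it did in siCtrl#2 against siCtrl#1 (1.02, adjusted p = 0.0416), and KRT8 fell (log2 fold change -0.69, adjusted p = 0.0104). The markers PTPRC, CD3E, COL1A2, COL3A1, DCN, CDH5, KDR and TEK, of leukocytes, fibroblasts and endothelium, were at 0 in all libraries, and the summed levels of the fibroblast and endothelial lists stayed at or under 1.47 CPM. CD68, a lysosomal protein of the leukocyte list, rose from a mean of 597 to 1141 CPM (log2 fold change 0.89, adjusted p = 3.33e-05), and the part of these differences in the results below was not tested.

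ESCRT-I depletion lowered most of the mitosis and cytokinesis genes. When the 4 on-target siRNAs were averaged and set against siCtrl#1, 31 of the 39 tested genes were down-regulated at an adjusted p under 0.05 and none was up-regulated, while 11.5% of all 10213 tested genes were called lower and 12.3% higher. At an additional 1.5-fold change 23 remained below and none above (6.45% and 8.57% of all tested genes). The median log2 fold change of the 39 was -0.67, a 1.59-fold decrease, against -0.0034 over all tested genes, and all 39 values were negative, from -1.29 to -0.015. None was called higher by DESeq2 either, and none was higher at an unadjusted p under 0.05, where 18% of all tested genes were. Leaving out single libraries gave 25 to 32 genes called lower. In bulk RNA, fewer cells in G2 or M phase and less RNA of these genes per cell cannot be told apart.

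The 17 genes whose 12 depleted libraries all lay below the 3 siCtrl#1 libraries were CCNB1, CCNB2, CCNA2, BUB1B, TTK, CDC20, PTTG1, CENPF, NUF2, KIF11, KIF4A, TPX2, DLGAP5, ASPM, ANLN, RACGAP1 and BIRC5, compared with 4.84% of all tested genes. Against all 6 control libraries there were 11, compared with 1.19% of all tested genes, since CCNB2, CCNA2, TTK, PTTG1, NUF2 and KIF11 overlapped siCtrl#2. No gene among the 39 had all depleted libraries above the control libraries, as 5.87% of all tested genes did against siCtrl#1 and 1.96% against both controls. Summed over the 39 genes, the level was 2766 ± 85.3 CPM (SD, n = 3) with siCtrl#1 and 2655 ± 126 CPM with siCtrl#2, then 2015 ± 55.7 CPM with siTsg101#2, 1710 ± 110 CPM with siVps28#1, 1554 ± 292 CPM with siTsg101#1 and 1384 ± 57.2 CPM with siVps28#2. In this order the siCtrl#1 libraries (2678 to 2849 CPM) overlapped those of siCtrl#2 (2517 to 2764 CPM), siVps28#1 (1588 to 1799 CPM) overlapped siTsg101#1 (1280 to 1862 CPM), and siTsg101#1 overlapped siVps28#2 (1332 to 1445 CPM). The siTsg101#2 libraries, at 1951 to 2054 CPM, overlapped none of the others. Genes of high level, such as TPX2 and CENPF, weigh most in this sum. The values within the batches were similar: the median difference over the 39 genes between the mean of the 4 on-target libraries and siCtrl#1 was -0.73, -0.52 and -0.74 on the log2(CPM + 0.5) scale, and 37 of the 39 genes were lower in each batch.

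**Figure D2:**
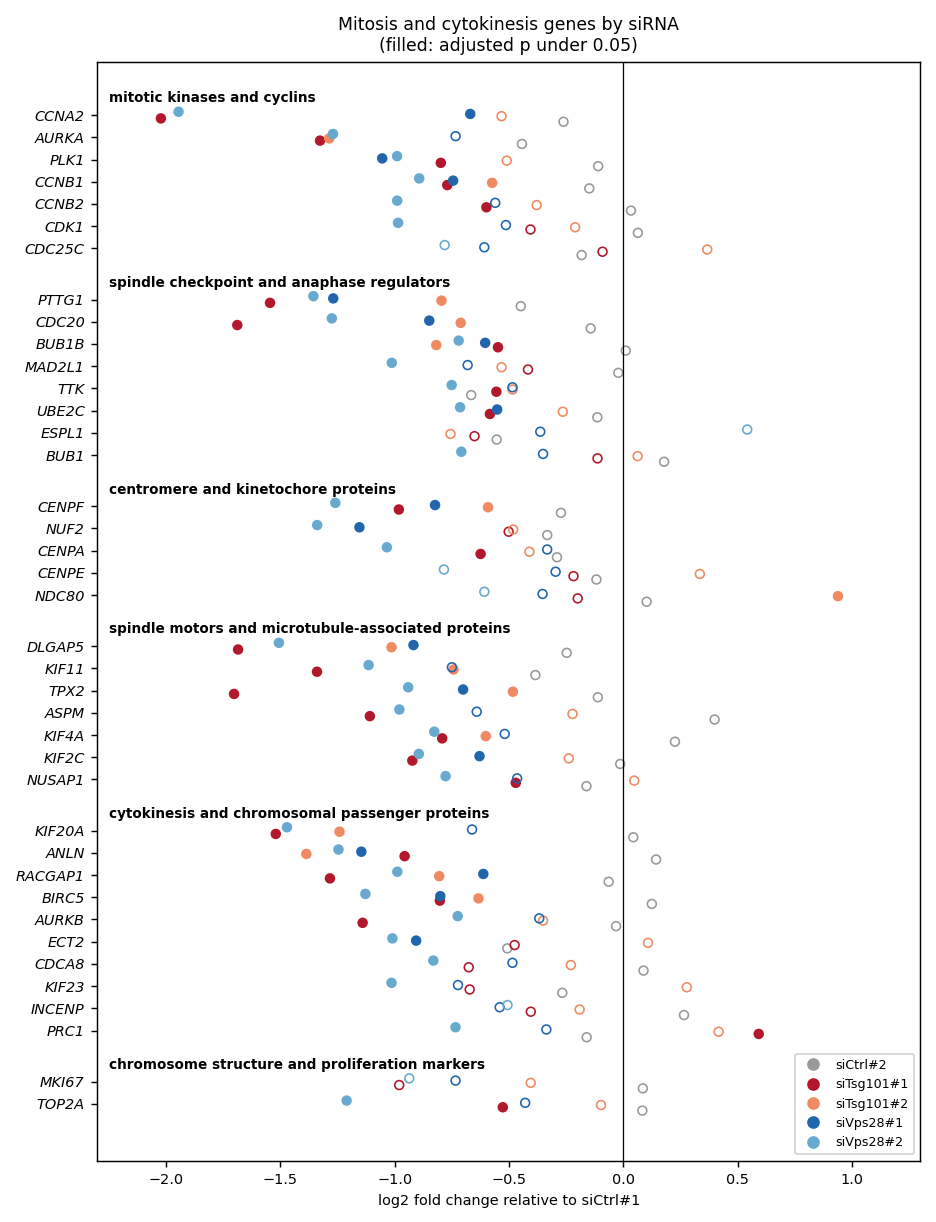
Each row is a gene, grouped by role, and the horizontal axis is its log2 fold change relative to siCtrl#1 for each of the other 5 siRNAs (n = 3 libraries each); filled circles passed an adjusted p under 0.05. The colored circles of the on-target siRNAs lie mostly left of 0, while none of the grey siCtrl#2 circles is filled.

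Among mitotic kinases and cyclins, 6 of 7 genes were lower in the mean of the 4 siRNAs (median -0.74). CCNA2 (chr4:122737599-122745038), the cyclin A that partners CDK2 and CDK1 through S and G2 phase, had the lowest value of all 39. It measured 106, 105 and 79.6 CPM in the siCtrl#1 libraries and 71.5, 89.6 and 81.01 CPM in the siCtrl#2 libraries. With on-target siRNAs it measured 19.2, 31.98 and 20.1 CPM with siTsg101#1, 66.3, 75.8 and 58.5 CPM with siTsg101#2, 73.3, 60.4 and 49.2 CPM with siVps28#1 and 30.4, 25.8 and 18.99 CPM with siVps28#2. The decrease was 2.45-fold in the mean (log2 fold change -1.29, SE 0.15, adjusted p = 3.84e-07), and it was uneven, with log2 fold changes of -2.02 and -0.53 with siTsg101#1 and #2 and -0.67 and -1.95 with siVps28#1 and #2. All 12 depleted libraries lay below siCtrl#1, and those of siTsg101#1 and siVps28#2 lay below the rest. In GRCh37, 254 exon bases of CCNA2 lie antisense to EXOSC9, and the strand setting of the counting is not stated.

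AURKA (chr20:54944445-54967393), the kinase of centrosomes and spindle poles, measured 22.8, 20.9 and 14.6 CPM in the siCtrl#1 libraries and 19.2, 7.84 and 15.5 CPM in the siCtrl#2 libraries. It then measured 5.50, 9.82 and 7.37 CPM with siTsg101#1, 7.49, 7.32 and 8.93 CPM with siTsg101#2, 10.3, 8.76 and 15.6 CPM with siVps28#1 and 8.42, 8.72 and 6.83 CPM with siVps28#2. The levels were low, and control and depleted libraries overlapped. The mean decrease of 2.23-fold was called (log2 fold change -1.15, SE 0.21, adjusted p = 0.000173). CCNB1 (chr5:68462962-68474072), the cyclin B whose complex with CDK1 triggers mitotic entry, measured 79.4, 51.3 and 69.6 CPM in the siCtrl#1 libraries and 58.2, 56.3 and 66.6 CPM in the siCtrl#2 libraries, and 37.7, 49.1 and 31.6 CPM with siTsg101#1, 39.2, 48.4 and 47.4 CPM with siTsg101#2, 46.2, 35.02 and 38.9 CPM with siVps28#1 and 40.1, 32.7 and 35.5 CPM with siVps28#2. It was lower with each of the 4 siRNAs, at log2 fold changes of -0.77 and -0.57 with siTsg101#1 and #2 and -0.74 and -0.89 with siVps28#1 and #2, and its 12 depleted libraries were all below the 6 controls (log2 fold change -0.74, SE 0.14, adjusted p = 0.000271 in the mean). PLK1, the kinase of centrosome maturation and mitotic exit, ranged over 50.7 to 103 CPM (median 60.6) in the 12 depleted libraries against 80.2 to 139.8 CPM (median 124) in the 6 control libraries (log2 fold change -0.84, SE 0.16, adjusted p = 0.000403). For PLK1, 10.7% of 50-base stretches are shared with an overlapping annotated gene. CCNB2, another cyclin B, ranged over 33.4 to 68.9 CPM (median 55.8) in the 12 depleted libraries against 61.6 to 97.3 CPM (median 86.1) in the 6 control libraries (log2 fold change -0.63, SE 0.15, adjusted p = 0.00273). CDK1 itself ranged over 47.97 to 102 CPM (median 78.6) in the 12 depleted libraries against 77.6 to 143 CPM (median 105) in the 6 control libraries. It fell by less (log2 fold change -0.53, SE 0.17, adjusted p = 0.0243), and siVps28#2 was the siRNA with which it passed the test on its own (log2 fold change -0.99, adjusted p = 0.00315). CDC25C (chr5:137620958-137674044), the phosphatase that activates CDK1, was not called in the mean (log2 fold change -0.28, SE 0.26, adjusted p = 0.468). Its levels were 8.48, 3.24 and 6.56 CPM in the siCtrl#1 libraries and 3.15, 5.70 and 7.40 CPM in the siCtrl#2 libraries, and 5.50, 6.29 and 5.76 CPM with siTsg101#1, 8.83, 5.68 and 9.73 CPM with siTsg101#2, 4.46, 3.46 and 4.39 CPM with siVps28#1 and 4.05, 3.65 and 3.16 CPM with siVps28#2, so that the control libraries spanned nearly the whole range.

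Of the spindle checkpoint and anaphase regulators, 6 of 8 were lower (median -0.61). CDC20 (chr1:43824652-43828874), the activator of the anaphase-promoting complex that the checkpoint restrains, measured 94.4, 59 and 74.2 CPM in the siCtrl#1 libraries and 72.2, 62.7 and 71.6 CPM in the siCtrl#2 libraries. Depleted cells had 19.2, 25.4 and 25.2 CPM with siTsg101#1, 39.5, 53.2 and 46.6 CPM with siTsg101#2, 38.7, 39.2 and 48.6 CPM with siVps28#1 and 31.6, 34.6 and 27.98 CPM with siVps28#2. All 12 depleted libraries lay below all 6 controls, a 2.19-fold mean decrease (log2 fold change -1.13, SE 0.13, adjusted p = 6.56e-07), and each siRNA was called on its own, with log2 fold changes of -1.69 and -0.71 with siTsg101#1 and #2 and -0.85 and -1.27 with siVps28#1 and #2. PTTG1 (chr5:159848862-159855746), or securin, which holds separase inactive until anaphase, measured 24.4, 19.8 and 18.4 CPM in the siCtrl#1 libraries and 13.1, 15.7 and 16.8 CPM in the siCtrl#2 libraries, and 5.89, 9.32 and 6.16 CPM with siTsg101#1, 13.8, 9.11 and 13.1 CPM with siTsg101#2, 10.03, 8.06 and 7.91 CPM with siVps28#1 and 7.01, 9.51 and 7.83 CPM with siVps28#2. It too was called with each siRNA, at log2 fold changes of -1.55 and -0.80 with siTsg101#1 and #2 and -1.27 and -1.36 with siVps28#1 and #2, and fell 2.36-fold in the mean (log2 fold change -1.24, SE 0.17, adjusted p = 6.05e-06), although siTsg101#2 overlapped the lowest siCtrl#2 library.

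BUB1B, the BUBR1 subunit of the mitotic checkpoint complex, ranged over 25.9 to 38.8 CPM (median 30.7) in the 12 depleted libraries against 39.3 to 55.9 CPM (median 50.5) in the 6 control libraries without overlap (log2 fold change -0.67, SE 0.14, adjusted p = 0.000802). MAD2L1, the MAD2 subunit of the same complex, ranged over 44.02 to 98.7 CPM (median 59.3) in the 12 depleted libraries against 77.8 to 130.1 CPM (median 91.98) in the 6 control libraries (log2 fold change -0.66, SE 0.19, adjusted p = 0.0111). TTK, the MPS1 kinase that starts the checkpoint signal, ranged over 13.3 to 20.2 CPM (median 17.5) in the 12 depleted libraries against 14.1 to 26.7 CPM (median 21.2) in the 6 control libraries. TTK was called lower in the mean (log2 fold change -0.57, SE 0.15, adjusted p = 0.00542), yet siCtrl#2 was as low as the depleted libraries, at 16, 18.3 and 14.1 CPM (log2 fold change -0.66, adjusted p = 0.0684). Between the controls TTK was called lower with the replicate number as a block (log2 fold change -0.68, adjusted p = 0.0244) and by DESeq2 (adjusted p = 0.0465). UBE2C, the ubiquitin-conjugating enzyme of the anaphase-promoting complex, ranged over 121 to 212 CPM (median 164) in the 12 depleted libraries against 191 to 274 CPM (median 235) in the 6 control libraries (log2 fold change -0.53, SE 0.12, adjusted p = 0.00241). BUB1 (chr2:111395105-111435640), the kinase that recruits checkpoint proteins to kinetochores, was not called in the mean (log2 fold change -0.28, SE 0.14, adjusted p = 0.17). It measured 57.4, 54.3 and 57.1 CPM in the siCtrl#1 libraries and 47.3, 61.1 and 82.3 CPM in the siCtrl#2 libraries, and 51.1, 58.2 and 47.3 CPM with siTsg101#1, 58.8, 58.6 and 59.02 CPM with siTsg101#2, 43.7, 34.6 and 54.04 CPM with siVps28#1 and 30.5, 35.5 and 37.3 CPM with siVps28#2. The siVps28#2 libraries were all below siCtrl#1 (log2 fold change -0.71, adjusted p = 0.00905), whereas those of siTsg101#2 all exceeded it by a small margin. ESPL1, or separase, followed the batch in most groups. With siCtrl#1 it was 3.91, 5.31 and 28.4 CPM in batches 1, 2 and 3, and batch 3 was also the highest with siCtrl#2, siTsg101#1, siTsg101#2 and siVps28#1, but not with siVps28#2, at 30.5, 1.90 and 25.5 CPM. Its SE of 0.78 exceeded its log2 fold change of -0.31.

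Of the centromere and kinetochore proteins, 3 of 5 were lower (median -0.60). CENPF (chr1:214776528-214837917), a large protein that coats kinetochores from G2 on, measured 202, 317 and 207 CPM in the siCtrl#1 libraries and 229, 187 and 184 CPM in the siCtrl#2 libraries, and 131, 145 and 92.4 CPM with siTsg101#1, 161, 138 and 183 CPM with siTsg101#2, 127, 154 and 129 CPM with siVps28#1 and 87.3, 97.98 and 117 CPM with siVps28#2. No depleted library reached a control library, and the mean decrease was 1.88-fold (log2 fold change -0.91, SE 0.14, adjusted p = 2.41e-05). NUF2 (chr1:163236366-163325554), a subunit of the microtubule-binding NDC80 complex, measured 22.8, 26.3 and 22.8 CPM in the siCtrl#1 libraries and 16.5, 16.4 and 23.7 CPM in the siCtrl#2 libraries, and 21.2, 15.9 and 14.6 CPM with siTsg101#1, 17.8, 16.9 and 16.6 CPM with siTsg101#2, 12.8, 8.30 and 11.2 CPM with siVps28#1 and 8.57, 7.77 and 11.99 CPM with siVps28#2. Libraries with either siVps28 lay below all the others, and the mean was called (log2 fold change -0.87, SE 0.17, adjusted p = 0.000313). CENPA, the histone H3 variant that marks centromeres, ranged over 7.45 to 15.2 CPM (median 11.5) in the 12 depleted libraries against 12.6 to 20.1 CPM (median 14.7) in the 6 control libraries (log2 fold change -0.60, SE 0.16, adjusted p = 0.00826). NDC80 (chr18:2571556-2616634) itself, the partner of NUF2, was not called in the mean (log2 fold change -0.055, SE 0.23, adjusted p = 0.896). It measured 6.31, 5.60 and 5.09 CPM in the siCtrl#1 libraries and 4.61, 4.75 and 8.51 CPM in the siCtrl#2 libraries, and 3.53, 5.54 and 5.22 CPM with siTsg101#1, 10.03, 11.8 and 10.7 CPM with siTsg101#2, 4.74, 3.92 and 4.61 CPM with siVps28#1 and 3.58, 2.54 and 4.997 CPM with siVps28#2. Only the siTsg101#2 libraries stood apart, all above the other 15, and NDC80 was called higher with this siRNA (log2 fold change 0.94, SE 0.27, adjusted p = 0.0152), a call lost without siTsg101#2 replicate 2 or siCtrl#1 replicate 3. CENPE, the kinetochore kinesin that aligns chromosomes, ranged over 5.07 to 15.3 CPM (median 8.74) in the 12 depleted libraries against 7.76 to 13.9 CPM (median 9.08) in the 6 control libraries and was not called in the mean (log2 fold change -0.24, SE 0.23, adjusted p = 0.498).

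All 7 tested spindle motors and microtubule-associated proteins were lower (median -0.74). DLGAP5 (chr14:55614830-55658326), or HURP, which stabilizes kinetochore fibers, measured 97.4, 76.4 and 73.2 CPM in the siCtrl#1 libraries and 73.9, 66.3 and 67.9 CPM in the siCtrl#2 libraries. After depletion it measured 29.1, 32.2 and 17.1 CPM with siTsg101#1, 34.3, 42.6 and 45.5 CPM with siTsg101#2, 50.1, 47.2 and 33.6 CPM with siVps28#1 and 21.8, 29.2 and 35.98 CPM with siVps28#2. It was called with each siRNA, at log2 fold changes of -1.68 and -1.01 with siTsg101#1 and #2 and -0.92 and -1.51 with siVps28#1 and #2, and decreased 2.43-fold in the mean (log2 fold change -1.28, SE 0.16, adjusted p = 9.46e-07) without overlap with the controls. TPX2 (chr20:30327074-30389608), which activates Aurora A on the spindle, measured 256, 286 and 289 CPM in the siCtrl#1 libraries and 286, 248 and 234 CPM in the siCtrl#2 libraries, and 88.8, 101 and 66.04 CPM with siTsg101#1, 211, 193 and 190.1 CPM with siTsg101#2, 165, 194 and 151 CPM with siVps28#1 and 163, 140.3 and 129 CPM with siVps28#2. With siTsg101#1 its level was lower than in every other library, and log2 fold changes were -1.70 and -0.48 with siTsg101#1 and #2 and -0.70 and -0.94 with siVps28#1 and #2 (log2 fold change -0.96, SE 0.12, adjusted p = 1.55e-06 in the mean). KIF11 (chr10:94333862-94415152), the Eg5 kinesin that separates spindle poles, measured 33.7, 41 and 24.4 CPM in the siCtrl#1 libraries and 18.9, 33.5 and 22.9 CPM in the siCtrl#2 libraries, and 14.1, 17.1 and 8.71 CPM with siTsg101#1, 18.9, 19.3 and 20.6 CPM with siTsg101#2, 19.5, 19.4 and 19.6 CPM with siVps28#1 and 14.03, 11.6 and 19.8 CPM with siVps28#2. Its mean decrease was 1.98-fold (log2 fold change -0.99, SE 0.18, adjusted p = 0.000257), and all 12 depleted libraries lay below siCtrl#1 but overlapped siCtrl#2.

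KIF4A, a chromosome-bound kinesin, ranged over 18.4 to 32.6 CPM (median 26.8) in the 12 depleted libraries against 37.5 to 53.2 CPM (median 42.9) in the 6 control libraries (log2 fold change -0.68, SE 0.15, adjusted p = 0.000984), and shares 14.2% of its 50-base stretches with other genes, most with the retrogene KIF4B. ASPM, a spindle-pole protein, ranged over 9.11 to 21.7 CPM (median 14.6) in the 12 depleted libraries against 21.8 to 38.8 CPM (median 25.7) in the 6 control libraries (log2 fold change -0.74, SE 0.16, adjusted p = 0.00156). Both were lower in all depleted libraries than in any control. KIF2C, the MCAK depolymerase that corrects attachments, ranged over 24.6 to 58.3 CPM (median 35.4) in the 12 depleted libraries against 52.2 to 62.8 CPM (median 55.7) in the 6 control libraries (log2 fold change -0.67, SE 0.14, adjusted p = 0.000844). NUSAP1 (chr15:41612992-41673248), which bundles spindle microtubules, changed least of the 7. It measured 108, 114 and 105 CPM in the siCtrl#1 libraries and 99.9, 99.1 and 93.2 CPM in the siCtrl#2 libraries, and 59.7, 101 and 74.2 CPM with siTsg101#1, 96.4, 142 and 99.4 CPM with siTsg101#2, 78.8, 83.2 and 74.7 CPM with siVps28#1 and 62.3, 67.1 and 61.1 CPM with siVps28#2, with the siTsg101#2 libraries around the controls. The call for the mean (log2 fold change -0.42, SE 0.13, adjusted p = 0.022) was lost with siCtrl#2 as the reference (log2 fold change -0.25, adjusted p = 0.203) and whenever 1 of the siCtrl#1 libraries was left out, and 78.2% of its 50-base stretches are shared, most with an annotated read-through transcript on the same strand. HMMR had between 0 and 2.24 CPM and was not tested.

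**Figure D3:**
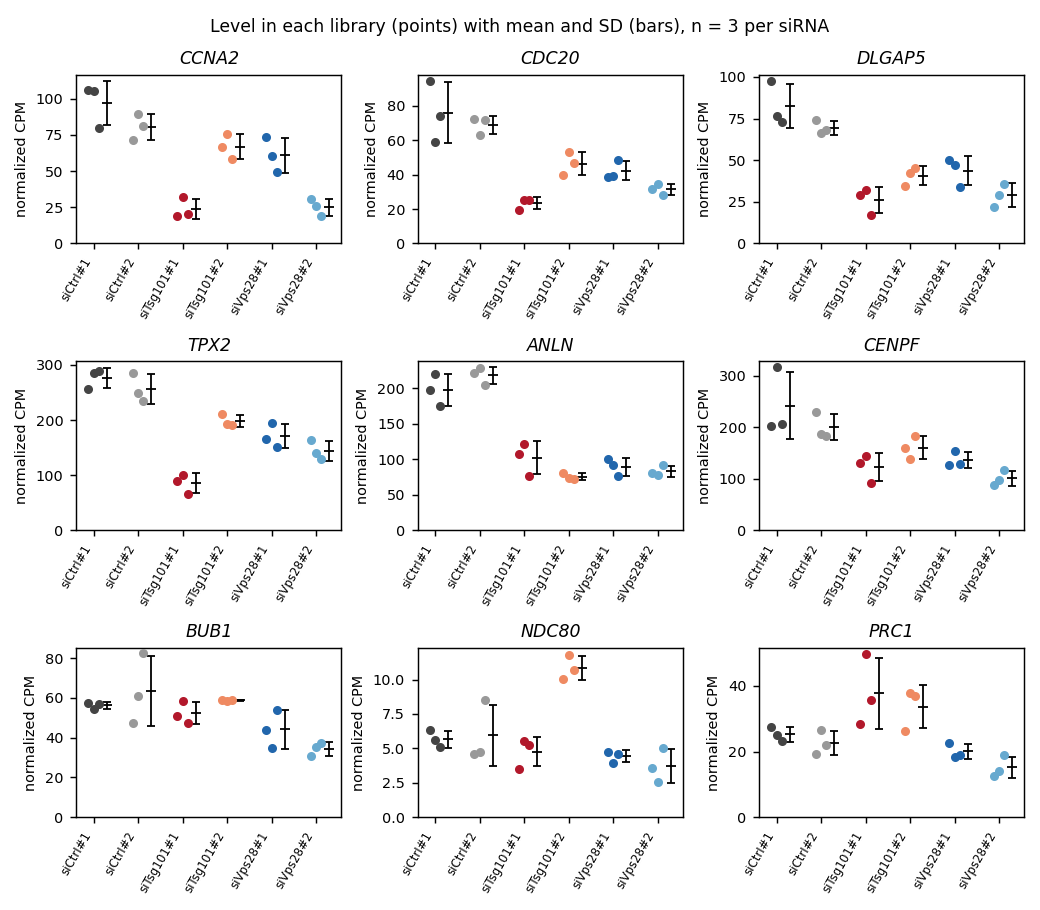
Normalized CPM of 9 genes in each of the 18 libraries (points), with the mean and SD of the 3 libraries of each siRNA beside them; the vertical axes start at 0. CDC20, DLGAP5, TPX2, ANLN and CENPF were lower in all 12 depleted libraries than in the 6 controls, CCNA2 was lowest with siTsg101#1 and siVps28#2, and BUB1, NDC80 and PRC1 differed between the siRNAs.

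Cytokinesis and chromosomal passenger genes were lower in 8 of 10 cases (median -0.61). ANLN (chr7:36429430-36493400), or anillin, the scaffold of the contractile ring, had the smallest p-value of the 39. It measured 197, 220.1 and 175 CPM in the siCtrl#1 libraries and 221, 228 and 205 CPM in the siCtrl#2 libraries. In depleted cells it measured 108, 122 and 76.8 CPM with siTsg101#1, 80.99, 73.1 and 72.3 CPM with siTsg101#2, 99.7, 91.9 and 76.01 CPM with siVps28#1 and 80.6, 77.2 and 91.8 CPM with siVps28#2. The depleted libraries ended at 122 CPM and the controls began at 175 CPM, a 2.27-fold mean decrease (log2 fold change -1.18, SE 0.12, adjusted p = 6.70e-08), with log2 fold changes of -0.96 and -1.39 with siTsg101#1 and #2 and -1.15 and -1.25 with siVps28#1 and #2. RACGAP1 (chr12:50370706-50426919), a centralspindlin subunit, measured 44.8, 49.6 and 41.5 CPM in the siCtrl#1 libraries and 40, 49.4 and 40.3 CPM in the siCtrl#2 libraries, and 16.5, 22.4 and 16.7 CPM with siTsg101#1, 27.8, 28.1 and 21.5 CPM with siTsg101#2, 32.3, 27.9 and 28.6 CPM with siVps28#1 and 24.3, 23.9 and 19.99 CPM with siVps28#2. It too was called with each siRNA and did not overlap the controls (log2 fold change -0.92, SE 0.13, adjusted p = 1.10e-05 in the mean). KIF23, the motor partner of RACGAP1 in centralspindlin, ranged over 4.16 to 17.9 CPM (median 7.42) in the 12 depleted libraries against 8 to 13.5 CPM (median 10.05) in the 6 control libraries and missed the threshold (log2 fold change -0.53, SE 0.21, adjusted p = 0.0636), which it passed with the replicate block (-0.54, adjusted p = 0.0354). KIF20A (chr5:137514408-137523412), the MKLP2 kinesin that brings the chromosomal passenger complex to the midzone, measured 16.7, 5.90 and 13.1 CPM in the siCtrl#1 libraries and 16.2, 10.2 and 11.3 CPM in the siCtrl#2 libraries, and 6.28, 4.28 and 3.08 CPM with siTsg101#1, 5.39, 5.83 and 4.15 CPM with siTsg101#2, 10.03, 5.07 and 8.13 CPM with siVps28#1 and 4.68, 4.76 and 3.66 CPM with siVps28#2. It had the largest mean decrease of the class, 2.33-fold (log2 fold change -1.22, SE 0.24, adjusted p = 0.000442), but 1 siCtrl#1 library lay among the depleted ones.

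BIRC5 (chr17:76210267-76221717), or survivin, a subunit of the chromosomal passenger complex, measured 150.0, 178 and 158 CPM in the siCtrl#1 libraries and 184, 183 and 163 CPM in the siCtrl#2 libraries, and 94.3, 109 and 75.8 CPM with siTsg101#1, 92.4, 124 and 97.1 CPM with siTsg101#2, 95.8, 96.5 and 86.6 CPM with siVps28#1 and 72, 73.2 and 76.9 CPM with siVps28#2. All 12 depleted libraries were below the 6 controls (log2 fold change -0.84, SE 0.12, adjusted p = 6.29e-06). AURKB, the kinase of the complex, ranged over 7.46 to 22.8 CPM (median 15.9) in the 12 depleted libraries against 17.4 to 26.2 CPM (median 23.9) in the 6 control libraries (log2 fold change -0.65, SE 0.19, adjusted p = 0.0116). CDCA8, or borealin, ranged over 9.16 to 25.4 CPM (median 16.3) in the 12 depleted libraries against 20.4 to 30.7 CPM (median 24.1) in the 6 control libraries (log2 fold change -0.56, SE 0.19, adjusted p = 0.0369), and INCENP, the scaffold subunit, over 37.9 to 66.02 CPM (median 48.6) in the 12 depleted libraries against 63.5 to 86.8 CPM (median 71.6) in the 6 control libraries (log2 fold change -0.41, SE 0.14, adjusted p = 0.0344), so that all 4 subunits were called lower, with INCENP the least. ECT2 (chr3:172468472-172539264), the exchange factor that activates RhoA at the division plane, measured 23.3, 22.1 and 22.6 CPM in the siCtrl#1 libraries and 9.21, 19.7 and 18.7 CPM in the siCtrl#2 libraries, and 20.4, 17.1 and 12.7 CPM with siTsg101#1, 21.1, 28.99 and 23.3 CPM with siTsg101#2, 12.3, 11.5 and 12.5 CPM with siVps28#1 and 9.66, 9.51 and 14.7 CPM with siVps28#2. Its call in the mean (log2 fold change -0.57, SE 0.19, adjusted p = 0.0249) was lost with siCtrl#2 as the reference (log2 fold change -0.063, adjusted p = 0.874) and without any 1 of the siCtrl#1 libraries. PRC1 (chr15:91509270-91538859), which bundles antiparallel microtubules of the midzone, had a mean near 0 (log2 fold change -0.015, SE 0.17, adjusted p = 0.96), with values of opposite sign for the 2 targets. It measured 27.6, 25.1 and 23.1 CPM in the siCtrl#1 libraries and 19.2, 26.6 and 22.01 CPM in the siCtrl#2 libraries, and 28.3, 49.6 and 35.6 CPM with siTsg101#1, 26.2, 37.95 and 37.01 CPM with siTsg101#2, 22.6, 18.4 and 19.1 CPM with siVps28#1 and 12.6, 14.1 and 18.8 CPM with siVps28#2. PRC1 was called higher with siTsg101#1 (log2 fold change 0.59, adjusted p = 0.0396), a call lost when any siCtrl#1 library or siTsg101#1 replicate 2 or 3 was left out, and lower with siVps28#2 (-0.73, adjusted p = 0.0209). For PRC1, 1892 exon bases lie antisense to PRC1-AS1 and 55.1% of 50-base stretches are shared with an overlapping annotated gene.

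TOP2A (chr17:38544777-38574148), the topoisomerase that untangles sister chromatids, measured 70.7, 83.2 and 86.96 CPM in the siCtrl#1 libraries and 67.4, 89.3 and 98.2 CPM in the siCtrl#2 libraries, and 71.9, 54.9 and 42.6 CPM with siTsg101#1, 66.3, 80.4 and 78.5 CPM with siTsg101#2, 62.7, 64.1 and 52.3 CPM with siVps28#1 and 37.6, 27.9 and 38.6 CPM with siVps28#2. It was lower in the mean (log2 fold change -0.57, SE 0.14, adjusted p = 0.00469), lowest with siVps28#2. MKI67 (chr10:129894923-129924687), the Ki-67 protein that coats mitotic chromosomes and serves as a proliferation marker, measured 80.01, 141 and 60.9 CPM in the siCtrl#1 libraries and 63.3, 148 and 85.6 CPM in the siCtrl#2 libraries, and 42.8, 73.8 and 26.5 CPM with siTsg101#1, 58.4, 88.2 and 64.6 CPM with siTsg101#2, 47.4, 75.1 and 45.5 CPM with siVps28#1 and 45.5, 49.3 and 51.3 CPM with siVps28#2. Replicate 2 was the highest library of every siRNA except siVps28#2. The mean was not called (log2 fold change -0.76, SE 0.30, adjusted p = 0.0808), but with the replicate number as a block it was (log2 fold change -0.73, adjusted p = 0.000634). Its log2 fold change ran from -1.01 without siCtrl#1 replicate 3 (adjusted p = 0.0411) to -0.36 without siCtrl#1 replicate 2 (adjusted p = 0.489), and it was also called without siTsg101#1 replicate 2 (-0.88, adjusted p = 0.0201) or siCtrl#2 replicate 2 (-0.76, adjusted p = 0.0493).

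Taken siRNA by siRNA, the 4 on-target siRNAs and siCtrl#2 were each compared with the same 3 siCtrl#1 libraries, so that these comparisons are not independent of each other. With siVps28#2, 33 of 39 genes were called lower and none higher (6.87% and 8.22% of all tested genes), with a median log2 fold change of -0.99. With siTsg101#1, 25 were lower and 1 higher (12.6% and 13.8% of all tested genes), with a median of -0.68. With siVps28#1, 16 were lower and none higher (4.21% and 5.44% of all tested genes), with a median of -0.63. All 39 values were negative with siVps28#1. Without siCtrl#1 replicate 1 or siVps28#1 replicate 3, the count for siVps28#1 was 9 or 10, and with siCtrl#2 as the reference it was 10, with a median of -0.57. With siTsg101#2, 14 were lower and 1 higher (9.21% and 11.7% of all tested genes), with a median of -0.48. Without siCtrl#1 replicate 1 or siTsg101#2 replicate 2 the count was 8 or 9, and with siCtrl#2 as the reference it was 10, with a median of -0.32. The replicate block gave 35 genes lower for siVps28#2, 28 for siTsg101#1, 23 for siVps28#1 and 16 for siTsg101#2. Shares of all tested genes under these alternatives are not given here, so the counts show only how far the calls move. For siVps28#1 and siVps28#2 no gene was higher with DESeq2 or at an unadjusted p under 0.05, where 11.7% and 14.8% of all tested genes were. In siCtrl#2 none of the 39 was called in either direction by edgeR, against 0.764% of all tested genes called lower and 1.51% called higher. The median was -0.11, 2 genes were lower and none higher at an unadjusted p under 0.05 (6.98% and 7.78% of all tested genes), and DESeq2 and the fit with the replicate block each called 1 lower, TTK. Within batches the median difference between siCtrl#2 and siCtrl#1 was -0.32, 0.073 and 0.050.

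The 2 subunits were compared directly, 6 libraries of siTsg101 against 6 of siVps28, without the controls. Each side pools 2 siRNAs, and the SE and p measure the spread between replicate libraries of the same siRNA. They do not measure the spread between siRNAs of a target, so differences between subunits and between siRNAs are not separated. Of the 39 genes, 9 had higher levels with siTsg101 than with siVps28 and none had lower levels, while 6.6% of all tested genes were called higher and 5.31% lower. The median difference was 0.18 on the log2 scale. PRC1 differed most (log2 fold change 1.04, SE 0.15, adjusted p = 1.94e-05), at 26.2 to 49.6 CPM with siTsg101 and 12.6 to 22.6 CPM with siVps28, without overlap. NUF2 (log2 fold change 0.75, SE 0.16, adjusted p = 0.00185), ECT2 (log2 fold change 0.77, SE 0.18, adjusted p = 0.00341), NDC80 (log2 fold change 0.85, SE 0.21, adjusted p = 0.00751) and BUB1 (log2 fold change 0.50, SE 0.13, adjusted p = 0.0107) followed. For NDC80 the siTsg101#2 libraries, at 10.03, 11.8 and 10.7 CPM, stood apart, whereas those of siTsg101#1, at 3.53, 5.54 and 5.22 CPM, overlapped the 6 siVps28 libraries. NUF2 was apart in all libraries, at 14.6 to 21.2 CPM against 7.77 to 12.8 CPM. The other called genes were TOP2A, CDC25C, KIF23 and NUSAP1, with differences of 0.51, 0.83, 0.67 and 0.41. The siTsg101#1 libraries also overlapped siVps28 libraries for BUB1, ECT2, TOP2A and NUSAP1. KIF23 differed between siTsg101#1 and siTsg101#2 as well (log2 difference -0.95, adjusted p = 0.026). With the replicate block CDK1 was called higher as well (log2 fold change 0.44, adjusted p = 0.0203, against 0.0699 without it). By class, 2 of 5 kinetochore genes and 3 of 10 cytokinesis genes were among the 9, and 1 of each of the other classes. At an unadjusted p under 0.05, 14 genes were higher and 1 lower (12.9% and 12.6% of all tested genes), and DESeq2 called 9 higher and none lower. TPX2, RACGAP1, AURKA and KIF20A averaged lower after Tsg101 depletion, with differences of -0.27, -0.24, -0.30 and -0.31, but did not pass. Within batches the median difference was 0.10, 0.31 and 0.11.

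**Figure D4:**
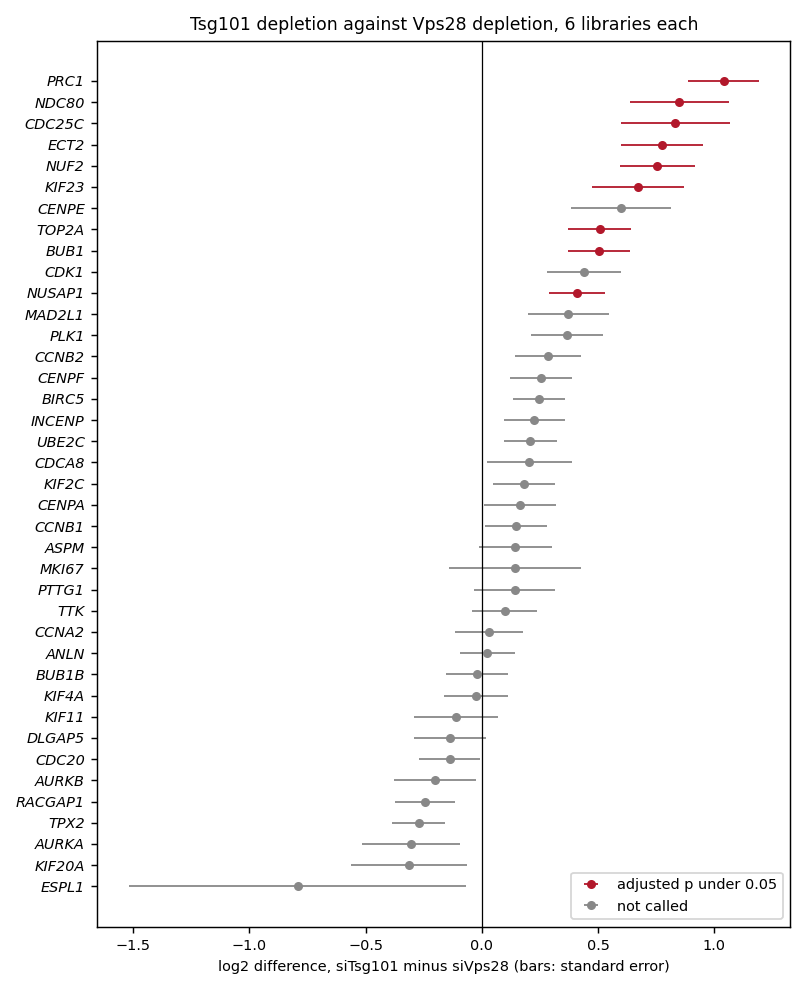
Log2 difference between Tsg101 depletion and Vps28 depletion for the 39 tested genes (6 libraries of each). Bars are standard errors from the spread within siRNAs, and red points passed an adjusted p under 0.05. The 9 red points all lie on the side of higher levels after Tsg101 depletion, led by PRC1.

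The 2 siRNAs of one target did not lower the genes equally. With siTsg101#1, 7 genes were lower than with siTsg101#2 and none higher (4.46% and 3.81% of all tested genes), the median difference was -0.39, and 34 of 39 differences were negative. The largest were in CCNA2 (log2 fold change -1.49, SE 0.21, adjusted p = 4.26e-05), TPX2 (-1.22) and NDC80 (-1.14). The count was 4 without siTsg101#1 replicate 3, 11 without siTsg101#1 replicate 2 and 12 with the replicate block. At an unadjusted p under 0.05, 16 genes were lower and 1 higher (11.9% and 10.3% of all tested genes), and DESeq2 called none higher. The 7 spindle motors and microtubule-associated proteins had the lowest median of any class, -0.67, with 3 called. siVps28#1 exceeded siVps28#2 in 36 of 39 genes (median difference 0.33), but CCNA2 was the single gene called higher, none being called lower (0.215% and 0.284% of all tested genes), with log2 fold change 1.28, SE 0.21, adjusted p = 0.00277. DESeq2 and the replicate block called 2 higher, and at an unadjusted p under 0.05 there were 11 higher and none lower (3.67% and 4.33% of all tested genes).

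Other lists of the cell division program were set beside these genes. Of 78 further G2 and M phase genes, 76 were tested, and 44 were lower and 1 higher in the mean of the 4 siRNAs (11.5% and 12.3% of all tested genes), with a median log2 fold change of -0.56 (MIS12 had 91 counts in total and KIF18B was not matched). Those with the smallest p-values were ZWINT, a kinetochore protein (log2 fold change -1.20, SE 0.15, adjusted p = 1.59e-06), TRIP13, the ATPase that disassembles checkpoint complexes (log2 fold change -1.13, SE 0.14, adjusted p = 1.69e-06), SGO2, a protector of centromeric cohesion (log2 fold change -1.21, SE 0.17, adjusted p = 6.36e-06), SPAG5, the spindle protein astrin (log2 fold change -0.99, SE 0.14, adjusted p = 1.15e-05), CDCA2, a phosphatase regulator (log2 fold change -1.02, SE 0.15, adjusted p = 1.26e-05), and SMC4, a condensin subunit (log2 fold change -0.81, SE 0.12, adjusted p = 1.71e-05). The gene that rose was STMN1, a microtubule destabilizer named after its values were seen, which had 0.891 CPM with siCtrl#1 and 168 counts in all (log2 fold change 1.38, SE 0.41, adjusted p = 0.015). Of 45 S phase replication genes, 44 were tested, and 36 were lower and 1 higher (CCNE1, a cyclin of the G1 to S transition named after its values were seen, log2 fold change 0.79), with a median of -0.89. PRIM2 was not matched. The replication initiation factor MCM10 (log2 fold change -1.49, SE 0.14, adjusted p = 1.32e-08), the helicase subunits MCM3 (log2 fold change -1.23, SE 0.13, adjusted p = 1.19e-07) and MCM7 (log2 fold change -1.14, SE 0.13, adjusted p = 6.44e-07), the methylation adaptor UHRF1 (log2 fold change -1.25, SE 0.14, adjusted p = 2.18e-07), the origin licensing factor CDT1 (log2 fold change -1.02, SE 0.13, adjusted p = 2.91e-06) and the flap endonuclease FEN1 (log2 fold change -1.14, SE 0.16, adjusted p = 6.27e-06) led. The S phase list was lower in siCtrl#2 as well, by a median of -0.32, with 40 of 44 values negative, 9 lower at an unadjusted p under 0.05 (6.98% of all tested genes) and none passing the adjusted threshold in edgeR. The median of the 39 mitosis and cytokinesis genes in siCtrl#2 was -0.11.

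Of 17 regulators of G2 and M phase transcription, 16 were tested, while NFYC had 0 counts. Of the 16, 4 were called lower and 2 higher, or 25% and 12.5% against 11.5% and 12.3% of all tested genes, with a median log2 fold change of -0.039 and 8 values on either side of 0. LIN9 (log2 fold change -1.04, SE 0.18, adjusted p = 0.000129) and LIN52 (log2 fold change -0.62, SE 0.20, adjusted p = 0.0265) of the MuvB core, its partner MYBL2 (log2 fold change -1.02, SE 0.18, adjusted p = 0.000173) and FOXM1 (log2 fold change -0.53, SE 0.13, adjusted p = 0.00421) fell. CDKN1A, the p21 inhibitor of cyclin-dependent kinases, rose (log2 fold change 0.88, SE 0.14, adjusted p = 4.82e-05), as did E2F5, a repressive E2F of the DREAM complex (log2 fold change 0.75, SE 0.17, adjusted p = 0.00214). Both also rose in siCtrl#2 against siCtrl#1, CDKN1A by 0.69 (adjusted p = 0.0249) and E2F5 by 0.77 (adjusted p = 0.0483) on the log2 scale. The 22 genes of ESCRT and of midbody abscission, without the 2 targets, had 1 called lower and 2 higher, or 4.55% and 9.09%, both shares under those of all tested genes, and a median log2 fold change of 0.13. The 3 called were SPAST, the spastin ATPase, which was lower (log2 fold change -0.43, SE 0.15, adjusted p = 0.0347), and the ESCRT-III protein CHMP1B (log2 fold change 0.42, SE 0.13, adjusted p = 0.0151) and its binding partner MITD1 (log2 fold change 0.43, SE 0.14, adjusted p = 0.0276), which were higher.

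The pattern of the 39 genes over the 6 siRNAs was summarized by their mean log2 CPM. Over the 6 group means, 28 of the 39 genes had a Pearson correlation with this mean above 0.8 (median 0.89, lowest -0.17), as did 6.81% of all tested genes, which is a description, since the genes are part of the mean and the groups share batches. Outside the list the closest were CDCA5, the cohesion factor sororin (r = 0.996), the serine synthesis enzyme PHGDH (r = 0.994), the cyclin CCNE2 (r = 0.994), the tRNA splicing subunit TSEN54 (r = 0.993) and the histone H3C8 (r = 0.992). In the mean of the 4 siRNAs CDCA5, PHGDH and H3C8 were called lower. CCNE2 (log2 fold change -0.72, adjusted p = 0.249) and TSEN54 (-0.20, adjusted p = 0.296) were not called. Tested genes outside the list with a promoter in the table were also split by motif. With both motifs in 1 promoter, 92 of 530 were called lower in the mean of the 4 siRNAs, or 17.4%. With neither, 388 of 4148 were called lower, or 9.35%. With 1 of the motifs, or both in different promoters, 432 of 3720 were, or 11.6%. The median log2 fold changes were -0.027, 0.0105 and -0.020 in this order. Genes of the other lists were not left out of these sets. Of the mitosis and cytokinesis genes tested with a promoter in the table, 16 of 22 with both motifs were called lower. Without both it was 9 of 11, where a CHR of other letters was not searched.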

How the data were processed

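The authors used an Ion AmpliSeq whole-transcriptome panel, in which primers amplify part of every targeted transcript, aligned the reads to an hg19 reference and counted them per gene with HTSeq (version 0.6.0 in the submitters' processing notes, which also name DESeq2 1.18.1). The values they deposited are raw counts, 1 list per library, without normalization. Each library had 2561790 to 7466916 reads on genes, or 45.40% to 46.68% of its reads. A further 48.23% to 49.07% were listed as assigned to no feature and stayed out of library sizes. The reads carry no molecular identifiers, and neither amplicon positions nor the strand option used in counting are given in the sources used here.

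Targets were matched to gene symbols (20224 of 20802). More than 100 counts in all libraries together were required (10632 genes), and after removal of 419 noncoding genes 10213 were tested, 93 of them without a name. The TMM-normalized counts were modelled in edgeR 4.0.16 (R 4.3.3) with 1 term per siRNA group and the robust quasi-likelihood test, with Benjamini-Hochberg adjustment over the 10213 genes. A call is an adjusted p under 0.05, after the study's methods, and a change of 1.5-fold in addition is given as another count. The common biological coefficient of variation was 0.171. CPM are library-size-scaled counts after TMM, read within a gene and not between genes. Sums over genes are compared only between libraries. The code was tested on simulated data.

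The genes, their classes and the other lists were chosen with earlier results of these data known, so that they are not independent evidence of a direction, and no test over a list was made. Lists are described by counts and medians beside all tested genes. Full statistics are given for the 12 genes with the smallest p in the mean of the 4 siRNAs among those called, the highest and lowest of each class and the 5 with the smallest p between the targets, and up to 6 genes are named per other list. Annotation limits come from GENCODE on GRCh37, as overlap of exons and as the share of 50-base stretches that occur in another gene, over the whole transcript.

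The labels give the replicate number as the batch, so same-numbered libraries are paired. The main fit held no batch term, and the replicate block is given as an alternative. Deviations from group means correlated by 0.146 on average over 45 pairs of the same number (-0.153 to 0.395) and by -0.073 over 90 other pairs. The alternatives were DESeq2 1.42.0, RLE size factors, no filter, at least 10 counts in every library, siCtrl#2 or both nontargeting siRNAs as reference, the replicate block, and each library left out.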

Additional observations from a re-analysis of the deposited data

Results flagged for a closer look

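The 2 siRNAs of one target differed in their effect, by a direct test of the difference, in 7 genes for Tsg101 and in 1 for Vps28. Between siTsg101#1 and siTsg101#2 the log2 difference was -1.22 for TPX2 (adjusted p = 2.5e-05), -1.49 for CCNA2 (adjusted p = 4.3e-05), -0.98 for CDC20 (adjusted p = 0.0013), -1.14 for NDC80 (adjusted p = 0.010), -0.89 for ASPM (adjusted p = 0.013), -0.68 for KIF2C (adjusted p = 0.022) and -0.95 for KIF23 (adjusted p = 0.026). In all 7 genes each of the 3 siTsg101#1 libraries lay below each of the 3 siTsg101#2 libraries. The same libraries gave the calls, so this separation is a description and adds no support. TSG101 itself stood at 3.14 to 4.55 CPM with siTsg101#1 and at 2.39 to 4.79 CPM with siTsg101#2. Between siVps28#1 and siVps28#2 the log2 difference was 1.28 for CCNA2 (adjusted p = 0.0028). CCNA2 is the gene of the 39 that passed the test for both targets.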

How the results depend on the processing

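The decrease of the 39 genes in the mean of the 4 siRNAs kept its direction under every alternative run. Its median shifted by less than the SD of its within-batch medians, and ran from -0.72 to -0.63 when single libraries were left out. In those runs 25 to 32 genes were called lower. The replicate block, which pairs libraries of a batch, gave 33. It gave 1 gene, TTK, lower in siCtrl#2, 12 lower in siTsg101#1 against siTsg101#2 and 2 higher in siVps28#1 against siVps28#2, moved no other count by over 1.5 times, and brought MKI67 and KIF23 past the threshold in the mean. With siCtrl#2 as the reference the medians were -0.32 for siTsg101#2, -0.57 for siVps28#1 and -0.88 for siVps28#2, and siVps28#1 had 10 genes lower. With both nontargeting siRNAs as the reference siTsg101#2 had a median of -0.40 and 2 genes higher, and BUB1 was called lower (-0.37, adjusted p = 0.0144). DESeq2 gave 1 gene lower in siCtrl#2 and 2 higher in siVps28#1 against siVps28#2. Without a filter 1 gene was lower in siTsg101 against siVps28, and in siVps28#1 against siVps28#2 1 was lower and 2 were higher, while 10 counts in every library left 0 genes higher for siTsg101#2. Leaving out single libraries gave 0 to 1 higher for siTsg101#1, 8 to 16 lower and 0 to 1 higher for siTsg101#2 with a median of -0.49 to -0.39, 9 to 20 lower for siVps28#1, 4 to 11 lower and 0 to 1 higher for siTsg101#1 against siTsg101#2, and 1 to 2 higher for siVps28#1 against siVps28#2. The cause of these shifts was not tested, and shares of all tested genes under the alternatives are not given here. Genes of low level, such as HMMR, CDC25C and NDC80, are limited by their counts. Over all comparisons, 636 counts and medians under the alternatives stayed within 1.5 times the reported count or within the replicate spread of the reported median, and 33 did not. Many of these runs left out 1 library of a siRNA outside the comparison, and equal counts of 0 were taken as unmoved. The tally is therefore a description and no measure of robustness.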
